A study of Homo sapiens with 6 samples.

Results

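Transcripts of 9 genes of glucose uptake, glycolytic control, lactate export, pH, mitophagy and the hypoxia response were followed in LX2 cells given GDF15. They are SLC2A1, HK2, PFKFB3, PFKFB4, SLC16A3, CA12, BNIP3, DDIT4 and MIR210HG, found by gene name among the 453 rows of the authors' deposited table, and all 9 were present once. LX2 is a widely used immortal line of human hepatic stellate cells, the vitamin A-storing pericytes of the liver that turn into matrix-producing myofibroblasts on injury. The treated group had 3 libraries of cells kept for 24 h with recombinant GDF15, a cytokine related to TGF-beta that stressed cells secrete, at 1 ug/ml, and the control group had 3 libraries of untreated cells. The sample labels call the cell type epithelial, whereas the series' design text calls the cells hepatic stellate cells. No knockout, transgene or further agent is named for either group, and whether the 3 libraries of each group were grown separately is unstated, so the spread among them may be technical.

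Cells that cannot use oxygen fully, or that run glycolysis fast, take up glucose through transporters such as GLUT1 (the product of SLC2A1), trap it with hexokinase and export the lactate that results. Low oxygen stabilises hypoxia-inducible factor (HIF), a dimer that binds a short core motif, A or G followed by CGTG, near its target genes. HIF raises many steps of this route together with mitophagy and pH genes, although growth factors and cytokine signalling can also reach it. PFKFB enzymes make and break fructose 2,6-bisphosphate, the activator of the committed step of glycolysis. In stellate cells, glycolysis is known to accompany activation.

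The upstream sequences of the genes are shown because HIF binding to such cores is the textbook route by which low oxygen raises many genes of this kind. HIF binding and activity were not measured here. For all 9 genes RefSeq start sites on GRCh38.p14 were found, 15 in all, with 2 for HK2, 2 for PFKFB3 and 5 for SLC16A3. The 250 bases before each start were searched on both strands for ACGTG and for GCGTG. A palindromic CACGTG holds ACGTG on both strands and was counted as 2 matches. The windows printed here are chr17:82228792-82229041 (SLC16A3, plus strand, the second of its 5 starts), chr10:6202682-6202931 (PFKFB3, plus, the second of 2 starts), chr10:131981924-131982173 (BNIP3, minus), chr10:72273674-72273923 (DDIT4, plus), chr11:568458-568707 (MIR210HG, minus) and chr1:42958869-42959118 (SLC2A1, minus). For SLC16A3 and PFKFB3 the start printed is the only one of the gene with ACGTG. The windows of PFKFB4 and CA12, without ACGTG, and of HK2, with it, are not printed, so the printed windows do not represent all 15. They run 5′ to 3′ on the strand of the gene, and capitals mark core matches on either strand.
SLC16A3: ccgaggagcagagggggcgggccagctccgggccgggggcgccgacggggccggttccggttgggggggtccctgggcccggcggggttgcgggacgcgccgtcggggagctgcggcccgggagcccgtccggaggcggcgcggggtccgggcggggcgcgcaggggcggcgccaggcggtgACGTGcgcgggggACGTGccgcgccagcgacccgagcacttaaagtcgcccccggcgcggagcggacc
PFKFB3: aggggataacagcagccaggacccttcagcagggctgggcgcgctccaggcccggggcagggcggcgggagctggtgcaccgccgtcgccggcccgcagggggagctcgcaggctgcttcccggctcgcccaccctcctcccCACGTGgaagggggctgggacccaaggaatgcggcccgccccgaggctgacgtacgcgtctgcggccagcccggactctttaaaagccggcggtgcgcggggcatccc
BNIP3: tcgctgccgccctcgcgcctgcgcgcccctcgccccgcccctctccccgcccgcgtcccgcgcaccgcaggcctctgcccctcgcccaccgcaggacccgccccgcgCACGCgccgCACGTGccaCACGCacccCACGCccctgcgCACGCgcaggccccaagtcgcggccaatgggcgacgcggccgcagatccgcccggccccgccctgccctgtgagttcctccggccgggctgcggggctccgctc
DDIT4: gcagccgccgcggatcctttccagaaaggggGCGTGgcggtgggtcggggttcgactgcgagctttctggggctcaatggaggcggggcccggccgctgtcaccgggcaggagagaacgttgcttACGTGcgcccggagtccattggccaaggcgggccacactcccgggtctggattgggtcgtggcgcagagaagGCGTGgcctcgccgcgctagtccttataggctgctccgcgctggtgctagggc
MIR210HG: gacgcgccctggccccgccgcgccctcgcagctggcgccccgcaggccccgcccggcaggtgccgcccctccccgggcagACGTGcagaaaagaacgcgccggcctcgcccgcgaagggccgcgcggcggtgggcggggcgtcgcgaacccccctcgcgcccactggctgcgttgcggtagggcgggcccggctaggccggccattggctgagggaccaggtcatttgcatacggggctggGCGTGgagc
SLC2A1: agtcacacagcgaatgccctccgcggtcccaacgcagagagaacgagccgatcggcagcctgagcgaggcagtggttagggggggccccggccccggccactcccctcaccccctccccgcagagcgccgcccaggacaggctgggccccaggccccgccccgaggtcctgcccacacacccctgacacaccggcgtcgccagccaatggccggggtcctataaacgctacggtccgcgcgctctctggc

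ACGTG was present in 7 of the 15 windows, or 46.7%. It was in at least 1 window of 6 of the 9 genes, or 66.7%, against 21.7% of the 27305 genes with a window. A gene with more starts has more windows to hold it, and the genes were not matched for their number of starts. Over all 35116 RefSeq windows of this length 18.5% held it, and over windows with a GC content of at least 64%, the lowest of the 15, 21.7% held it. The genes with it were HK2, PFKFB3, DDIT4, BNIP3, MIR210HG and SLC16A3. SLC16A3 had a pair of cores before its second start, and BNIP3 had a CACGTG flanked by 4 copies of GCGTG or its complement. For BNIP3 and PFKFB3 the only ACGTG lay within a CACGTG, which 6.34% of all windows held. GCGTG was present in 10 of the 15 windows, against 32.2% of all windows, and in 8 of the 9 genes, against 36.2% of genes. No GC limit was applied for GCGTG. The median GC content was 71.6% in the 15 windows and 58% over all windows, and the limit of 64% used for ACGTG does not match this difference in full. The SLC2A1 window held neither core, which says only that these letters are missing from these 250 bases. The genes were chosen in part as hypoxia-response genes, and these shares were not tested. Matches describe the letters and are not evidence of binding.

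**Figure D1:**
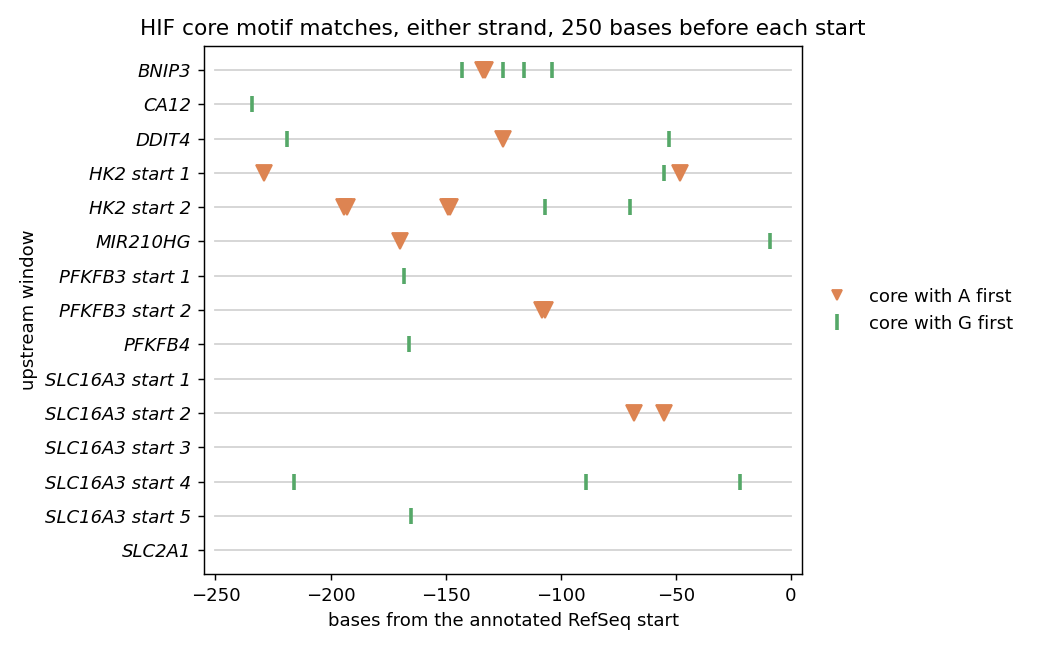
Position of core matches (x axis, bases from the annotated start) in the 250 bases before each of 15 RefSeq starts (y axis, starts numbered along the chromosome). Triangles mark ACGTG and bars mark GCGTG on either strand, and the windows of SLC2A1 and of SLC16A3 starts 1 and 3 are empty.

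The values are normalized counts, the authors' gene counts after a correction per library, and they compare libraries for a single gene. In the authors' deposited table the unadjusted p was under 0.05 for all 9 genes, as for 100% of its rows. The adjusted p there was 0.911 for each of the 9, and 0% of rows had an adjusted p under 0.05. Because the table was selected on this comparison and the genes were chosen from it, the values below are a description and no test was made on them. The normalized counts of the 453 rows summed to 279332 to 470046 per library, with the highest sum in GDF15 replicate 1. Full library depth is unknown, since the table is a selected part. By limma across the rows, 111 were higher and 59 lower at an unadjusted p under 0.05, which describes the list only. Of 37 markers of stellate, epithelial, hepatocyte, endothelial, macrophage and melanocytic cells, 0 were among the rows, so the cell type label could not be checked here. In bulk RNA, fewer cells of a type and less RNA per cell cannot be told apart.

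SLC2A1 and HK2, for glucose entry and its trapping by phosphorylation, were higher on average with GDF15, and both overlapped between the groups. SLC2A1 (ENSG00000117394, GRCh38 chromosome 1, 42925375 to 42959176, minus strand) had 6536, 4575 and 4101 normalized counts in the treated libraries 1, 2 and 3 and 4571, 2443 and 3162 in the untreated ones, an order of replicate numbers kept throughout. Untreated replicate 1 therefore lay level with GDF15 replicate 2 and above GDF15 replicate 3. The means were 5071 ± 1291 and 3392 ± 1083 normalized counts (SD, n = 3), a ratio of 1.49, the lowest of the 9 genes. HK2 (ENSG00000159399, chromosome 2, 74833981 to 74893359, plus strand), the inducible hexokinase bound to mitochondria, had 4448, 3126 and 2375 normalized counts with GDF15 and 3128, 1149 and 1768 without. Again untreated replicate 1 reached the level of GDF15 replicate 2, and the other untreated libraries were below all treated ones. The HK2 means were 3316 ± 1050 and 2015 ± 1013 normalized counts (SD, n = 3), a ratio of 1.65.

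The PFKFB genes had the same order of libraries at the top and parted in the untreated group. PFKFB3 (ENSG00000170525, chromosome 10, 6144934 to 6254644, plus strand), whose enzyme strongly favours making the activator, had 2405, 1504 and 1333 normalized counts with GDF15 and 1571, 516 and 784 without. Its means were 1748 ± 576 and 957 ± 548 normalized counts (SD, n = 3), a ratio of 1.83. PFKFB4 (ENSG00000114268, chromosome 3, 48517684 to 48562015, minus strand), a family member also known to respond to HIF, had 1579, 963 and 861 with GDF15 and 1020.2, 533 and 519 without. Untreated replicate 1 was above GDF15 replicates 2 and 3 for both genes. The PFKFB4 means were 1134 ± 388 and 691 ± 285 normalized counts (SD, n = 3), a ratio of 1.64. Within a library, where any library factor cancels, the ratio of PFKFB3 to PFKFB4 normalized counts was 1.52, 1.56 and 1.55 with GDF15 and 1.54, 0.968 and 1.51 without. Untreated replicate 2 thus stood apart with a low PFKFB3, and the other 5 libraries held the pair in nearly constant proportion. UCN2, a neuropeptide gene that shares 289 bases with PFKFB4 exons on the same strand, was also among the rows, at 13.5 to 23.8 normalized counts with GDF15 and 7.58 to 11.1 without.

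SLC16A3 and CA12 handle the acid that glycolysis makes, and neither overlapped between the groups, although the CA12 groups nearly touched. SLC16A3 (ENSG00000141526, chromosome 17, 82228397 to 82261129, plus strand), the lactate and proton exporter MCT4, had 14722.5, 10939 and 9903 normalized counts with GDF15 and 9027, 4242 and 5233 without. Untreated replicate 1 was again the highest untreated library and lay 877 normalized counts below the lowest treated one. The ratio of means was 1.92, and the authors' deposited table gave SLC16A3 an unadjusted p of 0.00118, the lowest of the 9 genes. CA12 (ENSG00000074410, chromosome 15, 63321378 to 63382161, minus strand), a carbonic anhydrase on the outer cell surface, had 37.2, 30.3 and 22.2 normalized counts with GDF15 and 14.5, 13.3 and 21.4 without. GDF15 replicate 3 and untreated replicate 3 were 0.789 normalized counts apart. The deposited values were whole multiples of a step per library, and CA12 amounted to 36, 27 and 20 steps with GDF15 and 14, 14 and 27 without, so in steps the groups overlapped. Whether a step is a whole read was not established. The CA12 means were 29.9 ± 7.55 and 16.4 ± 4.37 normalized counts (SD, n = 3), a ratio of 1.83. With an unadjusted p of 0.0429 in the authors' deposited table, CA12 was the gene of the 9 nearest to the limit of 0.05 on which rows were listed, and genes beyond that limit were not analysed here.

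BNIP3 and DDIT4 are stress-response genes that HIF is known to raise, and in both only untreated replicate 1 exceeded a treated library. BNIP3 (ENSG00000176171, chromosome 10, 131966455 to 131982013, minus strand), a mitochondrial receptor for mitophagy, had 6583, 4944 and 4364 normalized counts with GDF15 and 4923, 3287 and 1979 without. Its means were 5297 ± 1151 and 3396 ± 1475 (SD, n = 3), a ratio of 1.56. GENCODE names 39 numbered BNIP3 pseudogenes, and how the authors' counting shared reads among them is not given in the sources used here, so the BNIP3 level is uncertain. HK2 has 1 such pseudogene. DDIT4 (ENSG00000168209, chromosome 10, 72273920 to 72276036, plus strand), also called REDD1, restrains mTORC1 under stress and had 2403, 1635 and 1397 normalized counts with GDF15 and 1466, 753 and 697 without. Untreated replicate 1, at 1466, was thus just above GDF15 replicate 3, and the DDIT4 ratio of means was 1.86.

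MIR210HG, the noncoding host transcript of miR-210, a microRNA regarded as a hallmark of hypoxia, had the highest ratio of means of the 9 genes, 2.02. MIR210HG (ENSG00000247095, chromosome 11, 565660 to 568457, minus strand) had 254, 259.5 and 296 normalized counts with GDF15 and 221, 98.6 and 82.3 without. The groups did not overlap, the treated libraries were close together, and the untreated ones were split between replicate 1 and the other pair. The means were 269.98 ± 22.6 and 134 ± 75.7 normalized counts (SD, n = 3). MIR210HG was the one gene of the 9 that was not highest in GDF15 replicate 1. The MIR210 hairpin lies at 568089 to 568198 within the MIR210HG span and overlaps none of its GENCODE exons. Its mature product is shown to identify the microRNA, with the seed (bases 2 to 8) in capitals, and mature microRNAs were not measured by this poly(A) assay.
hsa-miR-210-3p: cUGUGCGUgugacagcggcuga

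**Figure D2:**
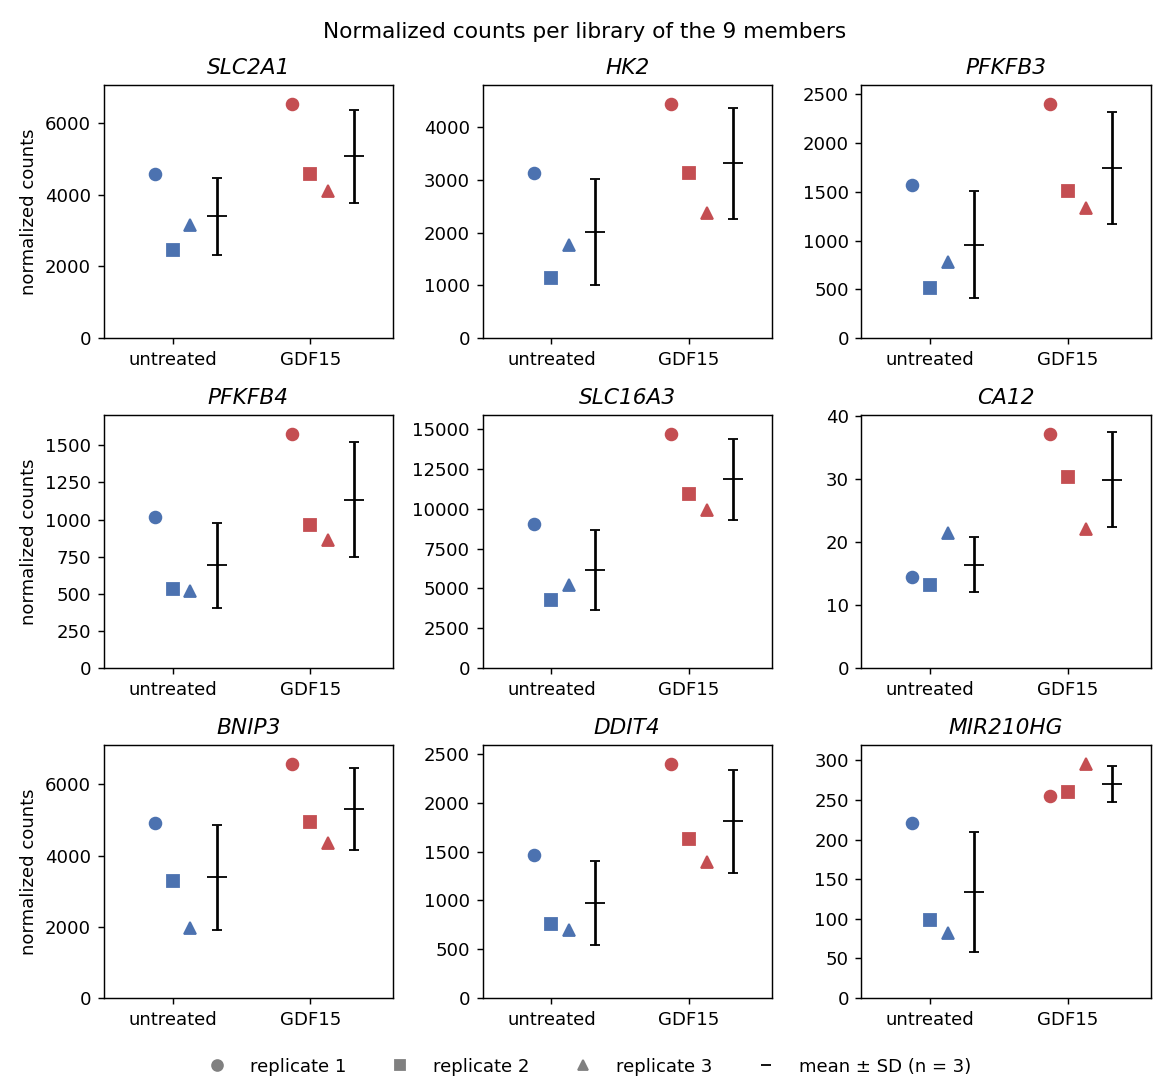
Normalized counts (y axis, linear from 0) of each of the 9 genes in the 3 untreated and 3 GDF15 libraries, with the replicate number as the marker shape and the mean ± SD in black. Untreated replicate 1 (blue circle) lies among the treated values in 6 panels, and SLC16A3, CA12 and MIR210HG show no overlap.

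All 9 genes had a higher mean with GDF15, a direction that the selection of the genes fixed, and their median log2 ratio of means was 0.87 against 0.70 over the 274 higher rows and 0.47 over all rows. The groups did not overlap for 3 of the 9 genes, or 33.3%, which lies near the 37.3% of all 453 rows that were higher without overlap and below the 61.7% among the 274 higher rows (67.8% of all rows counting both directions). In the other 6 genes the overlap came from untreated replicate 1 alone. That library exceeded the lowest treated library in 66.7% of the 9 genes and in 34.3% of the higher rows. It held the highest untreated value in 8 of the 9 genes, all except CA12, and in 66.1% of the higher rows. The highest of the 6 values fell in GDF15 replicate 1 for 8 of the 9 genes, against 65.7% of the higher rows. These shares were not tested against each other.

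Relative to the mean, the untreated libraries varied more than the treated ones for each of the 9 genes, whereas the SD itself was larger in untreated cells only for BNIP3 and MIR210HG. The coefficient of variation (SD over mean, n = 3) ran from 26.7% for CA12 to 57.3% for PFKFB3 in untreated cells, and from 8.38% for MIR210HG to 34.2% for PFKFB4 with GDF15. The medians of the 9 genes were 43.4% untreated and 25.5% treated. Over the 248 higher rows with a mean of at least 20 normalized counts the medians were 21.9% and 24.9%. Untreated replicate 2 was the lowest library for SLC2A1, HK2, PFKFB3, SLC16A3 and CA12, and untreated replicate 3 for PFKFB4, BNIP3, DDIT4 and MIR210HG.

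**Figure D3:**
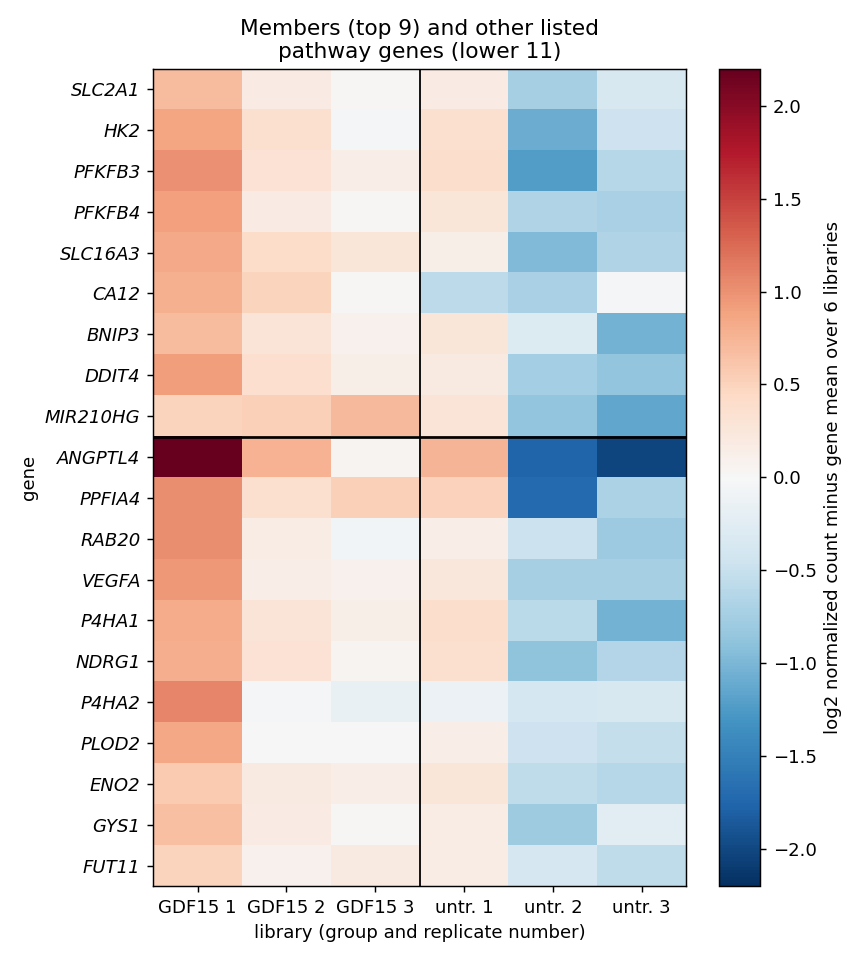
Log2 normalized count minus the mean of the gene over the 6 libraries (colour) for the 9 genes above the line and 11 further pathway genes among the rows below it (y axis), in each library (x axis). Untreated replicate 1 has the colours of the treated libraries for most genes, and CA12 is the exception among the 9.

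How far each value rested on a single library was followed by leaving out each in turn. The median of the log2 ratios of means over the 9 genes, 0.87 with all libraries, was 0.57 without GDF15 replicate 1, 0.62 without untreated replicate 2 and 1.19 without untreated replicate 1. Over all rows the same medians were 0.26, 0.36 and 0.54. Without untreated replicate 1 the groups did not overlap for 9 of 9 genes, and for 250 of the 453 rows in the higher direction. The 9 of 9 was fixed in advance, since that library alone made the overlap in 6 of the genes. All 9 genes were higher by selection, whereas 274 of the 453 rows were higher. Without GDF15 replicate 3 the groups did not overlap for 6 of 9 genes and 208 of the 453 rows. MIR210HG went from a log2 ratio of means of 1.01 to 1.58 without untreated replicate 1 and kept 1.05 without GDF15 replicate 1. PFKFB4 went from 0.72 to 0.40 without GDF15 replicate 1 and to 1.11 without untreated replicate 1. BNIP3 went from 0.64 to 0.37 without untreated replicate 3 and to 1.01 without untreated replicate 1. PFKFB3 gave 0.57 without either GDF15 replicate 1 or untreated replicate 2 and 1.43 without untreated replicate 1. HK2 gave 0.45, 0.44 and 1.19 in those same settings, and SLC2A1 gave 0.35 without GDF15 replicate 1. No gene of the 9 changed direction when a single library was left out, but the genes had been selected on this comparison with all 6 libraries.

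**Figure D4:**
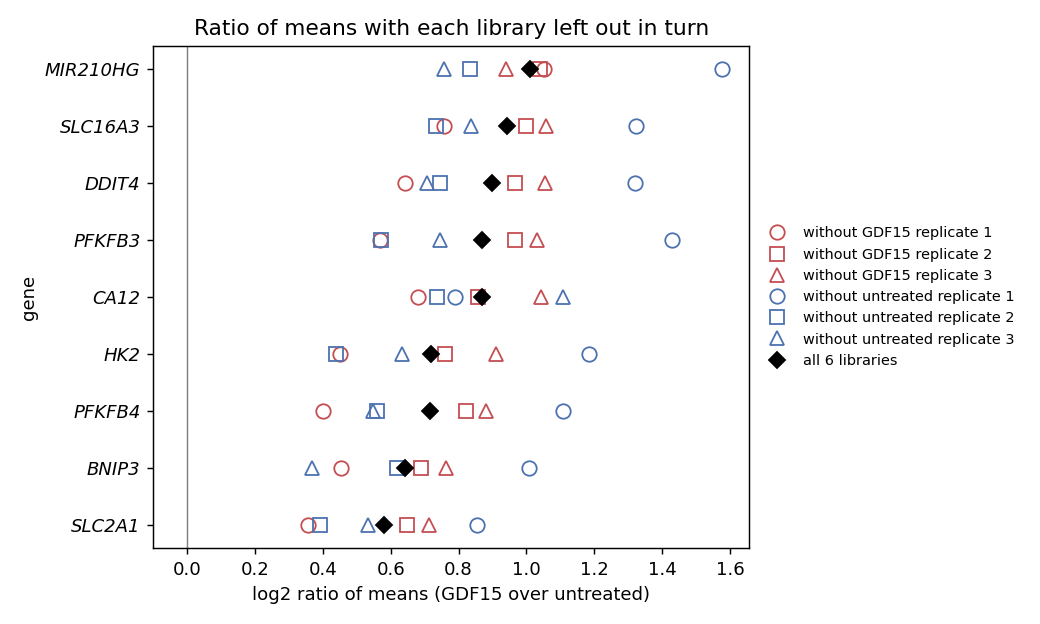
Log2 ratio of group means (x axis, GDF15 over untreated) of the 9 genes (y axis) with all 6 libraries (black diamonds) and with each library left out (open symbols, shape for the replicate number, colour for the group). Every value stays above 0, for genes selected as higher with all 6 libraries. Leaving out untreated replicate 1 gives the highest value for 8 of the 9 genes, up to 1.58 for MIR210HG.

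Across the 6 libraries most of the 9 genes moved together. Pearson's r of log2(normalized count + 1) had a median of 0.90 over the 36 gene pairs and was at least 0.9 in 18 of them. The highest was 0.993 for SLC2A1 with PFKFB3. Pairs with CA12 ran from 0.44 to 0.75, and the lowest r without CA12 was 0.77. Over all pairs of the 248 higher rows the median r was 0.76. These correlations share the library factors and the difference between groups on which the rows were listed, so they are a description.

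Each gene was also set against the geometric mean of the other 8 within the same library, so that the library factor cancels, and centred on its own mean over libraries. Only SLC16A3 and SLC2A1 separated the groups on this log2 scale, in opposite directions. SLC16A3 was at 0.04, 0.07 and 0.12 with GDF15 and -0.05, -0.17 and -0.01 without, and SLC2A1 was at -0.12, -0.18 and -0.15 with GDF15 and 0.01, 0.10 and 0.34 without. Lactate exporter transcripts were thus higher relative to glucose transporter transcripts in every treated library. The SLC16A3 to SLC2A1 ratio of normalized counts was 2.25, 2.39 and 2.41 with GDF15 and 1.97, 1.74 and 1.65 without. Ratios of HK2 to SLC2A1, DDIT4 to BNIP3 and MIR210HG to BNIP3, also computed, overlapped between the groups, as did PFKFB3 to PFKFB4. SLC16A3 and SLC2A1 are each part of the mean against which the other was set. How often other rows would separate in this way was not computed. On the log2 scale MIR210HG went its own way, from -0.34 in GDF15 replicate 1 to 0.62 in GDF15 replicate 3. BNIP3 was at 0.57 in untreated replicate 2 and -0.44 in untreated replicate 3, where HK2 was at -0.31 and 0.21.

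Per length, glucose uptake, lactate export and mitophagy transcripts were the most abundant and CA12 was far below the rest. Normalized counts per kb of the union of GENCODE exons in untreated cells were 718 ± 229 for SLC2A1, 686 ± 281 for SLC16A3, 638 ± 277 for BNIP3 and 472 ± 208 for DDIT4 (SD, n = 3). These neighbours do not differ beyond their spread. HK2 followed at 332 ± 167, PFKFB3 at 156 ± 89.7, PFKFB4 at 113 ± 46.7, MIR210HG at 57.7 ± 32.6 and CA12 at 2.24 ± 0.597. CA12 alone lay below its neighbour in this order by more than their spread. With GDF15 SLC16A3 led at 1318 ± 282 per kb, ahead of SLC2A1 at 1073 ± 273, BNIP3 at 995 ± 216 and DDIT4 at 880.2 ± 256, which again overlap in their spread. HK2 was at 547 ± 173 and CA12 at 4.09 ± 1.03. By the longest transcript the untreated level per kb was 1277 for SLC16A3, 1108 for BNIP3 and 924 for SLC2A1, so the order at the top depends on the length used.

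**Figure D5:**
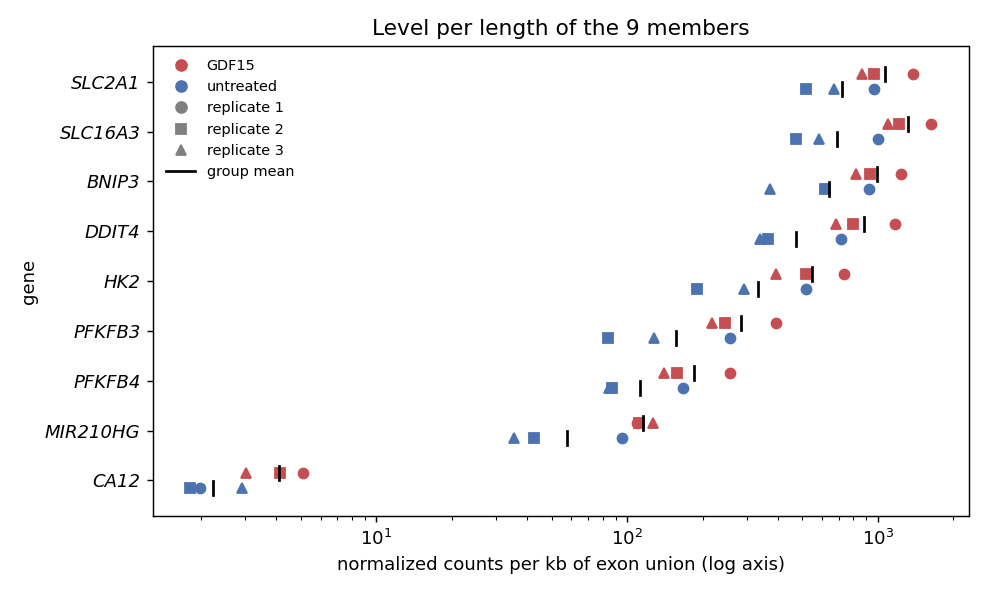
Normalized counts per kb of exon union (x axis, log axis) of the 9 genes (y axis) in each library, coloured by group and shaped by replicate number, with group means as black bars. The levels run from 2.24 for CA12 to 718 for SLC2A1 in untreated means, and the top 4 genes overlap one another.

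Other genes of the pathway were taken from 10 lists of 110 genes in all, 20 of them among the rows. All 20 had a higher mean under GDF15, where 274 of the 453 rows were higher. The lists were chosen with earlier results of these data known, so this count is a description and was not tested. Of these 20, 9 are the genes above, whose direction was fixed by their selection. The other 11 are ANGPTL4, PPFIA4, RAB20, VEGFA, P4HA1, NDRG1, P4HA2, PLOD2, ENO2, GYS1 and FUT11. Of the 13 glycolysis enzymes after hexokinase only the enolase gene ENO2 was among the rows, at 4904, 3750 and 3633 normalized counts with GDF15 and 3941, 2237 and 2136 without. Of the 10 genes of HIF subunits and oxygen sensing 0 were, and of the 6 glycogen genes 1, the glycogen synthase gene GYS1. P4HA1 and P4HA2, whose products hydroxylate collagen prolines and which are known HIF targets, had ratios of means of 1.66 and 1.61. All 11 were highest in GDF15 replicate 1 and all 11 had their highest untreated value in replicate 1, against 65.7% and 66.1% of the higher rows. None was without overlap, against 61.7% of the higher rows. Their median log2 ratio of means was 0.71, against 0.87 for the 9 genes.

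The rows whose pattern over the 6 libraries was most like the mean pattern of the 9 genes included several of these. Likeness was Pearson's r to the mean of the standardised log2(normalized count + 1) values, over rows with a mean of at least 20. The 10 highest, with r from 0.973 to 0.993, were PDGFB, TCAF2, NDRG1, ANGPTL4, VEGFA, TRIM9, ENO2, TRIB1, TRIB2 and NIM1K, of which 4 are in the pathway lists. NDRG1, a stress-induced gene, had 4655, 3319 and 2796 normalized counts with GDF15 and 3409, 1456 and 1705 without, so that untreated replicate 1 lay above GDF15 replicate 2 as in HK2. PDGFB, a growth factor gene, had 816, 574 and 567 with GDF15 and 566, 309.9 and 362 without, and VEGFA, the angiogenic factor gene, had 1315, 748 and 719 against 809, 408 and 410.2. Among the 9 genes themselves r to the mean pattern ran from 0.73 for CA12 to 0.994 for SLC16A3. Each of the 9 is part of that mean, so these r values cannot be set beside those of the other rows.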

How the data were processed

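Poly(A) RNA of 6 LX2 libraries was sequenced after ERCC spike-in RNA was added, per the labels' protocols. The submitters' processing notes name Trimmomatic 0.36, STAR 2.5.2b, featureCounts, Subread 1.5.2, DESeq2 and GRCh38; order, settings, annotation and strandedness were unstated, so overlapping or antisense genes cannot be told apart. The deposited signal per library holds counts normalized by the authors, whole multiples of a single step per library (0.792 to 1.12) within 0.001 of a step for 100% of values. The deposited log2 values are the authors' fold changes, and the deposited p-values are the authors' unadjusted and adjusted p. All columns per sample matched a library name, leaving 0 unmapped.

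Means, SDs and ratios of means were computed over 3 libraries per group with Python 3.11.15, pandas 2.3.3 and numpy 2.4.6, and plotted with matplotlib 3.10.9. For the 9 genes these ratios, on the log2 scale, were within 0.00992 of the deposited fold changes. Limma 3.58.1 in R 4.3.3, tested on simulated data, was run on log2(normalized count + 1) across the 453 rows, a scale that understates the change of low genes. A count test was planned only for raw counts and was not run. Gene spans, exons and lengths are from GENCODE release 29 on GRCh38, and start-site windows and the microRNA are from RefSeq on GRCh38.p14. The members and lists were chosen with earlier results of these data known. Named were the 9 genes, every row in a pathway list, the 10 rows most like the mean pattern and the nearest row to each gene. UCN2 was named after its values were seen. Alternatives were each library left out, other pseudocounts, scalings, filters and lengths, and a replicate block.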

Additional observations from a re-analysis of the deposited data

How the results depend on the processing

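The 9 genes kept a higher mean with GDF15, the direction fixed by their selection, in each of 117 gene and setting combinations. Of these, 115 moved by less than 1 SD of the libraries. The other 2 were MIR210HG without untreated replicate 1 (1.58) and, in a setting chosen after seeing the data, without replicate 1 of both groups (1.62). That limit is wide. Scaled to the sum of the listed rows, every gene was lower, and SLC2A1 went from 0.58 to 0.27 and HK2 from 0.72 to 0.40 within it. Leaving out single libraries, the median log2 ratio of means ran from 0.57 to 1.19, the count of genes without overlap from 3 to 9 (from 172 to 250 over all rows, in the higher direction), and the count of rows with a limma p under 0.05, 170 with all libraries, from 87 to 199. Without replicate 1 of both groups 9 genes and 252 of the 453 rows were higher with no overlap. For the 9 genes this too was fixed in advance, and 274 of the 453 rows were higher with all libraries. Steps in place of normalized counts gave a median of 0.59, with 0.22 over all rows in place of 0.47, and 2 genes and 32 rows higher without overlap in place of 3 and 169. Normalized counts and steps differ only by the step of each library. That step was 1.03, 1.12 and 1.11 with GDF15 and 1.04, 0.948 and 0.792 without, in the order of replicate numbers. Scaling to the sum of the listed rows gave 0.54 and 0.18, with 1 gene and 37 rows. Why the steps and sums differ between the groups was not tested. The minimum mean of 10 removed no row.

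Over the 420 rows with a mean of at least 20, deviations of same-numbered libraries from their group means had r of 0.16, 0.24 and -0.03 for numbers 1, 2 and 3. The treated library was most like the untreated one of its own number for numbers 1 and 2, not for 3. The numbers were not taken as pairs, although these r values do not settle whether they are. With the replicate block limma called 270 rows, the median log2 ratio was 0.87, and all 27 ratios within a number were above 1, which makes 9 genes higher at every number, as were 254 of the 453 rows. The edgeR test on recovered reads was not run, because whole reads were not accepted for these columns, nor were TMM and DESeq2 scalings, which need counts of all genes. Untreated levels per kb of PFKFB4, SLC16A3 and BNIP3 moved by over 1 SD with the longest transcript. Of the 10 rows most like the mean pattern, 7 were shared when deviations from group means were used and 10 with no minimum mean. Depth of the full libraries is unknown, and CA12, at 14 to 36 steps, is the gene most limited by counting.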

Other observations

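For each of the 9 genes the single row nearest to it in pattern over the 6 libraries was taken from rows with a mean of at least 20 normalized counts, as a description over values that share library factors and the listed difference. HK2 was nearest to PFKFB3 (r = 0.992) and PFKFB3 to SLC2A1 (r = 0.993), so 2 of the 9 found another of the 9. SLC2A1 was nearest to the transcriptional repressor gene BCL6 (r = 0.998), at 951, 592 and 541 normalized counts with GDF15 and 611, 298 and 410.2 without. PFKFB4 was nearest to VEGFA (r = 0.998), SLC16A3 to PDGFB (r = 0.991) and DDIT4 to ANGPTL4 (r = 0.993). BNIP3 was nearest to SPAG4 (r = 0.993), which shared its low value in untreated replicate 3, at 162 against 269 and 335 normalized counts in the other untreated libraries.

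CA12 and MIR210HG also had nearest rows outside the pathway lists. CA12 was nearest to TNFSF18, the gene of a TNF superfamily ligand (r = 0.958), at 119.998, 66.3 and 64.3 normalized counts with GDF15 and 38.4, 35.1 and 60.2 without. Both had untreated replicate 3 close to GDF15 replicate 3. MIR210HG was nearest to the potassium channel gene KCNT2 (r = 0.978), at 128, 116 and 134 with GDF15 and 105, 68.2 and 70.5 without. In both of these GDF15 replicate 3 was the highest library.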
